A study of Mus musculus with 21 samples.

Results

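RNA-seq was used to follow 39 genes of glucose use and the hypoxia response in mouse embryonic stem cells (mESCs) that lacked, or were depleted of, subunits of the cohesin complex, singly or together. The genes were those of a list of symbols, chosen by name and not by their measured values, and all 39 were among the 23412 genes counted. They comprised 18 glycolytic enzymes, 4 transporters of glucose and lactate, 4 regulators of glycolytic flux (Pfkfb3, Pfkfb4, Pdk1 and Pdk3), 12 other targets of hypoxia-inducible factor (HIF) and Hif1a, which encodes a subunit of HIF itself. Of these, 38 had enough counts to be tested among 14963 genes. The cells were v6.5, a male mESC line grown in serum on gelatinized dishes, and each condition had 3 libraries. WT cells received siGLO, a control siRNA for transfection, or siPds5b. Pds5b-KO cells received siGLO, and Pds5a-KO cells received siGLO, siPds5b, siStag1 or siStag2. Every siRNA was used at 50 nM and RNA was collected 48 h later. Each knockout was made with CRISPR/Cas9 edits of its gene, and each knockout line is 1 clone, so effects of the clone and of the gene cannot be told apart.

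Glycolysis splits glucose into pyruvate in the cytosol, and lactate dehydrogenase turns pyruvate into lactate, which leaves the cell through monocarboxylate transporters. HIF is a pair of an alpha and a beta subunit. With oxygen, prolyl hydroxylases such as Egln1 and Egln3 mark the alpha subunit for destruction, and at low oxygen it persists and binds short DNA elements with a core of ACGTG or GCGTG near its targets. These targets include most glycolytic enzymes and also genes of angiogenesis, mitophagy and collagen hydroxylation. PDS5A and PDS5B are alternative accessory subunits of the cohesin ring, and STAG1 and STAG2 are another such pair.

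Stretches just upstream of the start site are shown for 5 genes that the results turn on. Ldhb and Pfkp are the enzymes with the largest called decreases, P4ha2 is the HIF target called after siPds5b, and Adm and Ddit4 are the HIF targets that differed most between libraries labelled with different replicate numbers. The sequences are from RefSeq on GRCm38.p6, run 5′ to 3′ on the strand of the gene, and leave out annotated exons. Capitals mark ACGTG or GCGTG on either strand, so CACGT and CACGC are capitals as well, and overlapping matches run together. The P4ha2 stretch lies within the annotated span of the gene but outside its exons.
Ldhb (chr6:142507958-142508207, minus strand): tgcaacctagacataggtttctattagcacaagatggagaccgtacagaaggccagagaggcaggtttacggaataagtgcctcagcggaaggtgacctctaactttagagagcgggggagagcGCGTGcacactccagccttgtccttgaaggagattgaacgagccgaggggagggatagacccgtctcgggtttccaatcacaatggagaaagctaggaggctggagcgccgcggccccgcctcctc
Pfkp (chr13:6648778-6649021, minus strand): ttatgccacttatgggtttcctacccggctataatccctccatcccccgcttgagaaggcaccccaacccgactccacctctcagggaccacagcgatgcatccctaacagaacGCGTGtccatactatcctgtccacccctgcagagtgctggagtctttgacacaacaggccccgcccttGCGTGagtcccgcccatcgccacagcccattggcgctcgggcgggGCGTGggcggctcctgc
P4ha2 (chr11:54100674-54100923, plus strand): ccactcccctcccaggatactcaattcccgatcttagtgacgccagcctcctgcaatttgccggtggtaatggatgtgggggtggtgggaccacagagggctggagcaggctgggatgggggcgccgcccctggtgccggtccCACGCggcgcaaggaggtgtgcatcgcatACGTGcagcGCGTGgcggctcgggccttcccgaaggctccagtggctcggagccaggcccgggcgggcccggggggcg
Adm (chr7:110627407-110627656, plus strand): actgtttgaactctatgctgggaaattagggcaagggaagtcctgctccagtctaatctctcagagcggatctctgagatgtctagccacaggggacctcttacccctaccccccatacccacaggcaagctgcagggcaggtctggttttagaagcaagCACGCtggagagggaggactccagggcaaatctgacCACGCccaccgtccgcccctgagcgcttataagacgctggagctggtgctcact
Ddit4 (chr10:59951835-59952020, minus strand): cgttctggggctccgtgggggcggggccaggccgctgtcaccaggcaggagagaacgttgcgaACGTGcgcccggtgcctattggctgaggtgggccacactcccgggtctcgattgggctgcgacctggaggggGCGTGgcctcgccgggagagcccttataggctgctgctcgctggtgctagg

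RefSeq start sites were found for 37 of the 39 genes, in 51 windows of 250 bases upstream. The shares below count windows and not genes, with 29 windows for 18 enzymes and 12 for 11 other HIF targets. Unlike the stretches above, these windows keep annotated exons. Either core was present in 42 windows (82.4%), against 38.6% of all 32851 windows and 54.3% of the windows of tested genes. ACGTG was present in 10 of 12 windows of the other HIF targets (83.3%) and in 9 of 29 windows of the enzymes (31%), against 21.1% of the windows of tested genes. GCGTG was present in 75% of the windows of the other HIF targets and in 51.7% of those of the enzymes, against 43.4% for tested genes. The difference between the classes was smaller when either core was counted, at 91.7% for the other HIF targets and 75.9% for the enzymes. The median GC content of the windows was 68.6% for the other HIF targets, 58.4% for the enzymes and 59.6% for tested genes, and its part in these shares was not tested. The matches of Vegfa, for example, lie in a window at chr17:46025164-46025413 whose longest stretch outside annotated exons held none. A match of these letters is a description of the window and does not show binding.

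Library depth was between 17311090 and 23989198 counts, with a median of 19628146, and no 2 libraries of a condition agreed within sampling noise. Transcript levels of the targeted genes went with the siRNA labels: the log2 fold change of Pds5b after siPds5b was -1.52 in WT cells and -1.39 in Pds5a-KO cells, siStag1 gave -2.08 for Stag1 and siStag2 gave -1.90 for Stag2. Pds5b stood at -3.01 in Pds5b-KO cells. Pds5a differed by only -0.24 ± 0.09 (SE) between Pds5a-KO and WT cells with siGLO, with an adjusted p of 0.0415, so the transcript level neither identifies nor contradicts that label. The summed normalized counts of 9 pluripotency markers differed between conditions, at 140363 to 151010 in WT siGLO, 112008 to 126599 in Pds5a-KO siGLO, 107829 to 123354 in Pds5b-KO siGLO, 96159 to 106793 in Pds5a-KO siPds5b and 84110 to 99075 in Pds5a-KO siStag2. Those of 6 fibroblast markers were 1047 to 1444 in WT siGLO, 1662 to 2070 in WT siPds5b, 319 to 1350 in Pds5a-KO siGLO and 272 to 388 in Pds5b-KO siGLO. Those of 3 neuroectoderm markers (Sox1, Pax6 and Nes) were 1958 to 2691 in WT siGLO, 1116 to 1491 in Pds5a-KO siGLO and 2385 to 2543 in Pds5b-KO siGLO. Such a sum does not show its single genes, and the study reports a rise of Pax6 in both knockouts. Over all libraries the sums were 773 to 2484 for 5 primitive endoderm markers, 918 to 1650 for 5 trophoblast markers and 50.7 to 585 for 3 mesoderm markers. No marker of these lists was at 0 throughout a condition, and the part of these differences in the results was not tested.

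In WT siGLO mESCs the highest level per length belonged to Gapdh, at 1261 ± 57.5 CPM (counts scaled to library size) per kb of exon (SD, n = 3). Ldha, the main lactate dehydrogenase subunit of glycolytic cells, followed Pkm at 725 ± 56.6, and Pgk1, the first ATP-producing enzyme, was at 714 ± 59.4, which did not differ beyond the spread. The glucose transporters Slc2a3 and Slc2a1 were at 275 ± 24.6 and 231 ± 29.9. Bnip3, a mitophagy receptor, had the highest level of the other HIF targets, at 107 ± 7.25, and Hif1a was at 26.5 ± 1.25. The lowest levels per length among tested genes were those of Car9, a carbonic anhydrase at the cell surface, at 0.972 ± 0.222, and of Pfkfb4 at 0.796 ± 0.263. Adm was at 1.60 ± 0.621 and P4ha2 at 4.22 ± 0.349, so the other HIF targets whose values are given below lay mostly in the lower part of the range.

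Eno1, the main enolase, had 0 to 2 raw counts per library and was not tested. Of the 100-base stretches of its coding transcripts, 39.5% also occur in transcripts of other annotated genes, and the part of this in the low counts was not tested. The same share was 67% for Pgk1, 53.1% for Gapdh, 39.7% for Pgam1 and 31.6% for Bnip3, and how reads were counted there is not given in the sources used here, so their values are uncertain. It was 0% for Eno3, P4ha2, Vegfa, Adm and Ddit4, 6.44% for Ldhb and 14.2% for Pfkp. Pfkp overlaps Pitrm1 on the opposite strand by 748 bases.

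The first question was whether loss of PDS5A alone changed these genes. In Pds5a-KO siGLO relative to WT siGLO, 3 of 38 genes rose and none fell at an adjusted p under 0.01 (edgeR), where 17.8% of all tested genes were called, 9.63% higher and 8.12% lower. They were the enzymes Eno3 and Ldhb and the angiogenic factor Vegfa. The normalized counts of Eno3 (GRCm38 chr11:70657202-70662513), the muscle form of enolase, were 724, 720 and 757 in WT siGLO and 1087, 1222 and 1083 in Pds5a-KO siGLO. All 3 knockout libraries were above all WT libraries, with a log2 fold change of 0.62 ± 0.08 (SE) and an adjusted p of 3.26e-06. Ldhb encodes the lactate dehydrogenase subunit that is common in heart. Its normalized counts were 3620, 4279 and 3758 in WT siGLO and 5998, 6700 and 6996 in Pds5a-KO siGLO. Here too the groups were apart, with a log2 fold change of 0.76 ± 0.17 and an adjusted p of 0.00312. Vegfa (chr17:46016993-46032369) had 1315, 1377 and 1412 normalized counts in WT siGLO and 1662, 1940 and 2426 in Pds5a-KO siGLO, a log2 fold change of 0.56 ± 0.14 with an adjusted p of 0.00439. Replicate 3 was the highest knockout library for Vegfa, and without it the adjusted p was 0.0379. Ldhb was no longer called without WT siGLO replicate 1 or 3 or without Pds5a-KO siGLO replicate 2 or 3 (adjusted p up to 0.0158), and Vegfa was also not called without Pds5a-KO siGLO replicate 2 or any 1 of the WT siGLO libraries, whereas Eno3 was called in each of these fits. DESeq2 called 4 of the 38 genes, adding Slc2a1, against 19.5% of all genes it tested. Libraries did not overlap for 6 of the 38 genes, against 40.8% of all tested genes.

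The other HIF targets had a median log2 fold change of 0.15 in this comparison, the 17 enzymes -0.02 and all tested genes 0.00. The median of the other HIF targets was 0.068 without Pds5a-KO siGLO replicate 3, and 0.025 without all libraries of replicate 3. That of the enzymes was between -0.059 and 0.034 when each library was left out in turn, on both sides of 0. Adm, which encodes the vasodilator peptide adrenomedullin, had the largest value of all, 1.34 ± 0.62, and was not called (adjusted p = 0.124). Its normalized counts were 35.2, 45.1 and 73.6 in WT siGLO and 60.9, 130.0 and 200.5 in Pds5a-KO siGLO, so the lowest knockout library lay within the WT range. The glucose transporters Slc2a1 and Slc2a3 had log2 fold changes of 0.51 ± 0.17 and 0.50 ± 0.22, with adjusted p of 0.0325 and 0.112.

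**Figure D1:**
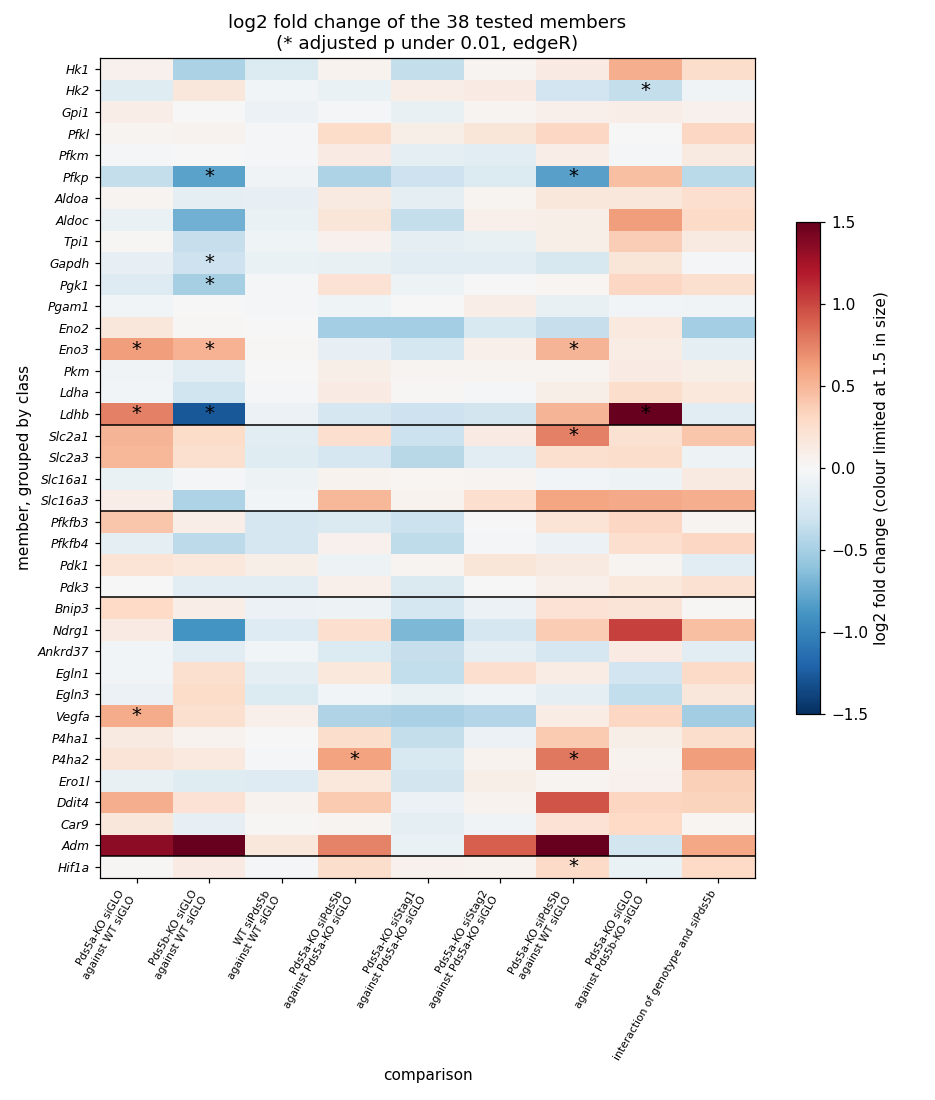
Log2 fold change of each of the 38 tested genes (rows, grouped as enzymes, transporters, flux regulators, other HIF targets and Hif1a) in 9 comparisons (columns), where red is higher in the first-named condition, blue is lower and colours are limited at 1.5 in size. Stars mark an adjusted p under 0.01. Ldhb has a star with red in Pds5a-KO and with blue in Pds5b-KO, the deep red Adm cells have no star, and the columns of WT siPds5b, siStag1, siStag2 and the interaction have none.

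Loss of PDS5B was examined in a clone of its own. In Pds5b-KO siGLO relative to WT siGLO, 4 of 17 enzymes fell and Eno3 rose, while none of the 12 other HIF targets, 4 transporters and 4 flux regulators passed the test. Across all tested genes 18.2% were called, 9.64% higher and 8.57% lower. DESeq2 called 5 of the 38 genes, all of them enzymes, against 20.5% of all genes it tested. At an unadjusted p under 0.05 stood 10 of the 17 enzymes, 2 of the 12 other HIF targets, 1 transporter and 0 flux regulators, together 13 of the 38 genes, against 6367 of all 14963 tested genes. Libraries did not overlap for 14 of the 38 genes, against 45.3% of all tested genes. The enzymes that fell were Ldhb, Pfkp, Pgk1 and Gapdh.

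Ldhb was at 1369, 1616 and 1826 normalized counts in Pds5b-KO siGLO, each below the 3620 of the lowest WT library. Its log2 fold change was -1.28 ± 0.18, with an adjusted p of 4.17e-05. Pfkp (chr13:6579768-6648777) is the platelet form of phosphofructokinase, which commits sugar to glycolysis. It had 4996, 5173 and 4250 normalized counts in WT siGLO and 2463, 2875 and 2902 in Pds5b-KO siGLO, a log2 fold change of -0.81 ± 0.14 with an adjusted p of 0.000225. Pitrm1, on the opposite strand, had a log2 fold change of -0.03 (adjusted p = 0.769). Eno3 rose to 1032, 999 and 1121 normalized counts, a log2 fold change of 0.52 ± 0.08 with an adjusted p of 3.55e-05. The direction in Pds5b-KO thus matched that in Pds5a-KO for Eno3 and was opposite for Ldhb. Both comparisons share the WT siGLO libraries.

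Pgk1 had 28798, 33876 and 32607 normalized counts in WT siGLO and 19956, 21933 and 25520 in Pds5b-KO siGLO (log2 fold change -0.50 ± 0.13, adjusted p = 0.0066). Gapdh, often used as a constant reference gene, had 102491, 108283 and 98962 in WT siGLO and 76030, 82888 and 90593 in Pds5b-KO siGLO (-0.31 ± 0.08, adjusted p = 0.00397). The libraries did not overlap for either gene, but both calls depended on single libraries. Without Pds5b-KO siGLO replicate 1 the adjusted p was 0.0459 for Pgk1 and 0.0354 for Gapdh. Neither was called without WT siGLO replicate 2 or Pds5b-KO siGLO replicate 2, Gapdh was not called without WT siGLO replicate 1, and Pgk1 was not called without WT siGLO replicate 3. Ldha had 43591, 50976 and 48005 normalized counts in WT siGLO and 34695, 37529.5 and 43412 in Pds5b-KO siGLO, and was not called at -0.30 ± 0.11 (adjusted p = 0.0426).

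The median log2 fold change in Pds5b-KO was -0.17 over the 17 enzymes, of which 13 were below 0, and 0.12 over the 12 other HIF targets, of which 4 were below 0. Without Pds5b-KO siGLO replicate 3 the median of the other HIF targets was 0.0069. Over all tested genes it was 0.00, with 7527 of 14963 below 0. Among the other HIF targets, Ndrg1, a stress-response gene, was at 369, 390 and 396 normalized counts in Pds5b-KO siGLO and at 534, 942 and 684 in WT siGLO. The groups were apart, but with a log2 fold change of -0.90 ± 0.37 the gene was not called (adjusted p = 0.08). Adm stood the other way, at 1.61 ± 0.61 (adjusted p = 0.058), with 99.2, 150.5 and 223.3 normalized counts that were all above the WT libraries. The values of the other HIF targets thus lay on both sides of 0 in this line.

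**Figure D2:**
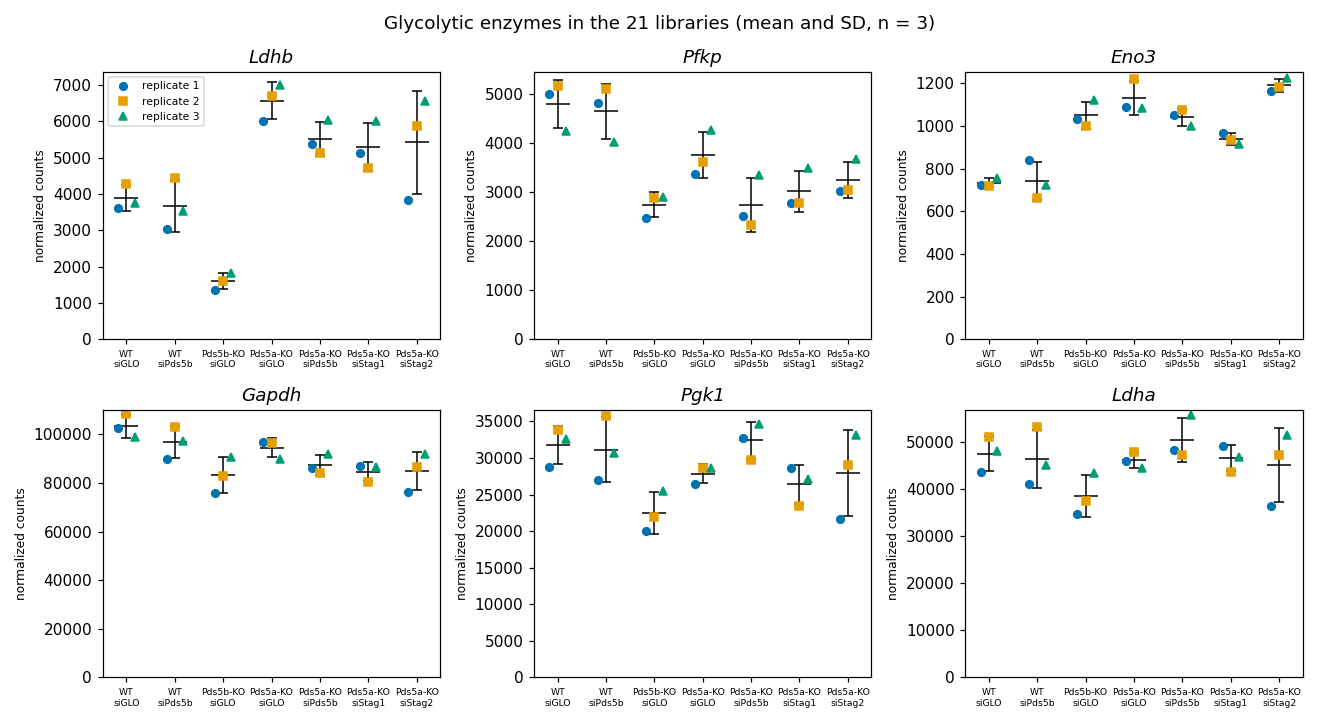
Normalized counts of 6 glycolytic enzymes (vertical axes from 0) in the 21 libraries, by condition, with a colour and shape for each replicate number and the mean and SD of 3 libraries in black. The Ldhb libraries of Pds5b-KO lie at 1369 to 1826 and those of Pds5a-KO siGLO at 5998 to 6996, on either side of WT siGLO at 3620 to 4279.

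The knockouts were also compared directly, and only Ldhb and Hk2 of the 38 genes were called by edgeR. Ldhb was higher and Hk2 lower in Pds5a-KO siGLO than in Pds5b-KO siGLO, with 19.2% of all tested genes called, 9.74% higher and 9.46% lower. DESeq2 called 4, adding Hk1 and Pfkp, both higher, against 23.1% of all genes it tested. Libraries did not overlap for 14 of the 38 genes, against 41.1% of all tested genes. The difference in Ldhb was 2.03 ± 0.18 on the log2 scale, with an adjusted p of 2.6e-07, and it was called in each of 13 alternative fits. Hk2, a hexokinase that traps glucose in the cell, had 7151, 6757 and 7938 normalized counts in Pds5a-KO and 10164, 9318 and 8499 in Pds5b-KO. Its log2 fold change was -0.36 ± 0.10, with an adjusted p of 0.00892, and it was not called without replicate 1 or 2 of either knockout (adjusted p up to 0.0454), nor with scaling by library size only or with a fit of these 2 conditions alone. Relative to WT siGLO, Hk2 was not called in either knockout. The 17 enzymes had a median of 0.17 and the 12 other HIF targets 0.10, against 0.02 for all tested genes. Without Pds5a-KO siGLO replicate 3 the median of the other HIF targets was -0.062. Ldhb lies at chr6:142490249-142507957, and 8 tested genes lie within 1 Mb on either side. Relative to WT siGLO, the log2 fold changes of these neighbours ran from -0.50 to 1.08 in Pds5a-KO and from -1.89 to 1.56 in Pds5b-KO, where 1 was called lower. Between the knockouts 1 neighbour was called higher and 1 lower in Pds5a-KO.

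Acute knockdown of PDS5B in WT cells gave no calls among these genes. None of the 38 was called in WT siPds5b relative to WT siGLO by edgeR or by DESeq2, and none had an unadjusted p under 0.05, against 631 of 14963 tested genes, and 0.00668% of all tested genes were called by edgeR and 0.0199% by DESeq2. The groups were without overlap for 1 of the 38 genes, against 11.2% of all tested genes. The log2 fold changes ran from -0.25 to 0.17 and were below 0 for 30 of 38 genes, against 7387 of 14963 tested genes. Below 0 were 14 of 17 enzymes, 4 of 4 transporters and 8 of 12 other HIF targets. The medians were -0.04 for the enzymes and -0.04 for the other HIF targets. The latter was between -0.15 and 0.029 when each library was left out. Genes that deviate together within libraries do not count as separate observations. Ldhb, at 3031, 4448 and 3529 normalized counts, overlapped WT siGLO, in contrast to its level in the Pds5b-KO line. Its log2 fold change of -0.08 ± 0.17 and the -1.28 of the knockout were both taken against the WT siGLO libraries. The extent of loss also differed, with a log2 fold change of Pds5b transcript of -1.52 after siPds5b and -3.01 in Pds5b-KO. The extent and duration of loss and the clone cannot be told apart in that contrast.

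The same siRNA in Pds5a-KO cells addressed loss of PDS5B in the absence of PDS5A. Relative to Pds5a-KO siGLO, 1 of 38 genes, P4ha2, rose after siPds5b and none fell, with 7.59% of all tested genes called, 4% higher and 3.59% lower. DESeq2 called 2, P4ha2 as higher and Pfkp as lower, against 9.25% of all genes it tested. Libraries did not overlap for 8 of the 38 genes, against 31.2% of all tested genes. P4ha2 (chr11:54100095-54131665) encodes a catalytic subunit of the collagen prolyl hydroxylase. It had 591, 530 and 669 normalized counts with siGLO and 850, 753 and 1112 with siPds5b, a log2 fold change of 0.60 ± 0.15 with an adjusted p of 0.00942. The groups did not overlap, although replicate 3 was the highest library of both. The adjusted p was 0.0697 without Pds5a-KO siPds5b replicate 3, and the call was also lost without Pds5a-KO siPds5b replicate 1, without any 1 of the Pds5a-KO siGLO libraries, with no filter on low counts and in a fit of these conditions alone.

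Libraries with the same replicate number deviated together in this pair of conditions. A fit that kept the replicate number as a block called 5 of 38 genes, 4 higher and 1 lower, against 10.5% of all tested genes, 5.73% higher and 4.75% lower. The block was 1 effect per replicate number, shared by all 7 conditions, also those where the numbers were not taken as pairing. It is thus not a paired test of these conditions alone. P4ha2 was joined by Slc16a3, Adm and Hif1a, which were higher, and by Vegfa, which was lower. Slc16a3, the lactate exporter of glycolytic cells, had 4339, 5426 and 5713 normalized counts with siGLO and 6561, 6653 and 8654 with siPds5b, with a log2 fold change of 0.50 ± 0.20 and an adjusted p of 0.114 without the block and 0.00145 with it. Hif1a had 3449, 2911 and 3030 with siGLO and 3947, 3833 and 3512 with siPds5b, so that all siPds5b libraries were higher, and its adjusted p was 0.0296 without the block and 0.00929 with it. Vegfa had 1307, 1381 and 1738 with siPds5b, below the siGLO library of the same number in each case, with a log2 fold change of -0.45 ± 0.14 and an adjusted p of 0.0306 without the block and 0.00654 with it. For Adm the adjusted p was 0.403 without the block and 0.00987 with it. The median log2 fold change was 0.06 for the enzymes and 0.16 for the other HIF targets, and without Pds5a-KO siPds5b replicate 3 these medians were -0.09 and -0.13.

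Cells without PDS5A and with reduced PDS5B were then set against WT siGLO. In Pds5a-KO siPds5b, 4 of 38 genes rose (Eno3, Slc2a1, P4ha2 and Hif1a) and Pfkp fell. Across all tested genes 32% were called, 17.4% higher and 14.6% lower. Slc2a1 (chr4:119108711-119137983) encodes GLUT1, the glucose transporter that most cells use. Its normalized counts were 13946, 18097 and 16051 in WT siGLO and 23225, 26082 and 31898 in Pds5a-KO siPds5b. No library overlapped, and the log2 fold change was 0.76 ± 0.17 with an adjusted p of 0.00158, or 0.0105 without Pds5a-KO siPds5b replicate 3. P4ha2 went from 519, 567 and 480 to the siPds5b values above, with a log2 fold change of 0.80 ± 0.15 and an adjusted p of 0.00023, and stayed called in each of 13 alternative fits. Hif1a went from 3099, 2946 and 3237 to 3947, 3833 and 3512, a change of 0.28 ± 0.08 with an adjusted p of 0.00758. The groups of Hif1a were apart but close, and the call was lost without any 1 of the WT siGLO libraries, without Pds5a-KO siPds5b replicate 1 or 2 (adjusted p up to 0.0486) and with no filter on low counts.

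Eno3 was at 1050, 1077 and 999 normalized counts (log2 fold change 0.51 ± 0.08, adjusted p = 2.04e-05) and lay below every library of Pds5a-KO siGLO, a log2 fold change of -0.12 ± 0.08 that was not called (adjusted p = 0.342). Pfkp was at 2511, 2321 and 3356 (-0.82 ± 0.14, adjusted p = 8.86e-05), and Pitrm1 at 0.13 on the log2 scale was not called. Ldhb had 5372, 5136 and 6044 normalized counts, above every WT siGLO library, and was not called at 0.51 ± 0.17 (adjusted p = 0.0233). Adm had the largest value, 2.09 ± 0.61, with 141, 148 and 372 normalized counts that lay above all WT libraries, and its adjusted p of 0.0111 missed the threshold. Ddit4, an inhibitor of growth signalling through mTORC1, had a log2 fold change of 0.94 ± 0.44 that was also not called (adjusted p = 0.0949), although its libraries did not overlap those of WT siGLO. Libraries without overlap were found for 12 of the 38 genes, against 54.3% of all tested genes. DESeq2 called 8 of the 38 genes, adding Ldhb and Adm as higher and Gapdh as lower, against 31.6% of all genes it tested.

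The median log2 fold change over the other HIF targets was 0.22, with 10 of 12 above 0, over the transporters 0.42 and over the enzymes 0.08, with 12 of 17 above 0. Without Pds5a-KO siPds5b replicate 3 it was 0.00 for the other HIF targets and -0.03 for the enzymes. The effect of siPds5b was not shown to differ between genotypes for any of the 38 genes by edgeR or DESeq2, with 4 genes at an unadjusted p under 0.05 (2589 of 14963 tested genes) and with 1.48% of all tested genes called for this interaction by edgeR and 2.82% by DESeq2. The interaction value was 0.63 ± 0.22 for P4ha2 (adjusted p = 0.116) and -0.53 ± 0.19 for Vegfa (adjusted p = 0.148).

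**Figure D3:**
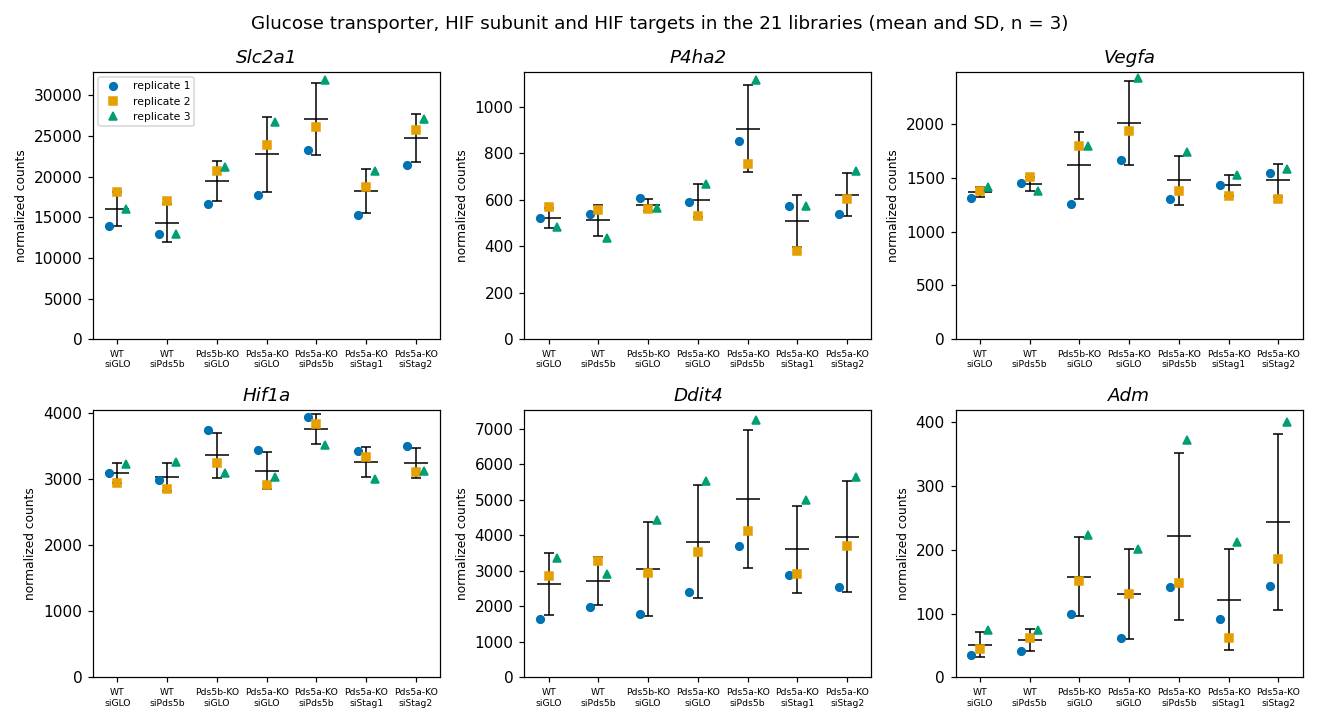
Normalized counts of the glucose transporter Slc2a1, the HIF subunit Hif1a and 4 other HIF targets (vertical axes from 0) in the 21 libraries, by condition, with a colour and shape for each replicate number and the mean and SD of 3 libraries in black. Replicate 3 (triangles) is the highest library of Ddit4 and Adm in each of the 5 knockout conditions, and the Slc2a1 libraries of Pds5a-KO siPds5b lie at 23225 to 31898, above WT siGLO at 13946 to 18097.

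Knockdown of the STAG subunits in Pds5a-KO cells gave no calls among the 38 genes. After siStag1 no gene passed by edgeR or DESeq2 relative to Pds5a-KO siGLO, 7 had an unadjusted p under 0.05 (1598 of 14963 tested genes), and 0.0936% of all tested genes were called by edgeR and 0.563% by DESeq2. Groups without overlap were found for 8 of the 38 genes, against 15.7% of all tested genes. The log2 fold changes of the other HIF targets were below 0 for 12 of 12 genes, with a median of -0.27, and those of the enzymes for 13 of 17, with a median of -0.14, against 7742 of 14963 genes and a median of -0.01 overall. These genes deviated together within libraries, as given next, so they do not count as 12 separate observations. The median of the other HIF targets was between -0.41 and -0.13 when each library was left out in turn. Vegfa had 1430, 1329 and 1529 normalized counts after siStag1, below the 1662 of the lowest siGLO library, with a log2 fold change of -0.49 ± 0.14 and an adjusted p of 0.136. After siStag2 no gene passed by edgeR or DESeq2, 1 had an unadjusted p under 0.05 (3783 of 14963 tested genes), and 2.24% of all tested genes were called by edgeR and 5.89% by DESeq2. The groups were apart for 2 of the 38 genes, against 26.4% of all tested genes. The gene with the low unadjusted p was Vegfa, at 1549, 1302 and 1583 normalized counts, with a log2 fold change of -0.44 ± 0.14 and an adjusted p of 0.0509. Without all libraries of replicate 1, Vegfa and Pdk1 were called after siStag2, against 1.6% of all tested genes. The Vegfa values after siPds5b, siStag1 and siStag2 are all relative to the same 3 libraries of Pds5a-KO siGLO, in which Vegfa was highest.

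Libraries of the same condition varied more for the other HIF targets than for the enzymes. This was examined after the values had been seen. The median SD of log2 counts within conditions was 0.16 for the enzymes, 0.16 for all tested genes and 0.30 for the other HIF targets. It was 0.243 for the 4 transporters and 0.235 for the 4 flux regulators. The median share of this variance by replicate number was 71.7% for the transporters and 46.3% for the other HIF targets. That share was 39.2% for the flux regulators, 31.9% for the enzymes and 18.7% for all tested genes. Within a condition, the mean deviation of the 12 other HIF targets from the condition mean was below 0 in replicate 1 in 7 of 7 conditions, with a median of -0.23. In replicate 3 it was above 0 in 6 of 7 conditions, with a median of 0.35, and the exception was WT siPds5b at -0.01. In WT siGLO and WT siPds5b the highest library was replicate 2, at 0.09 and 0.24. The enzymes moved in the same direction by less, with medians of -0.09 in replicate 1 and 0.10 in replicate 3, while the mean deviation of all tested genes stayed between -0.04 and 0.03. The labels do not say what libraries of the same number shared.

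**Figure D4:**
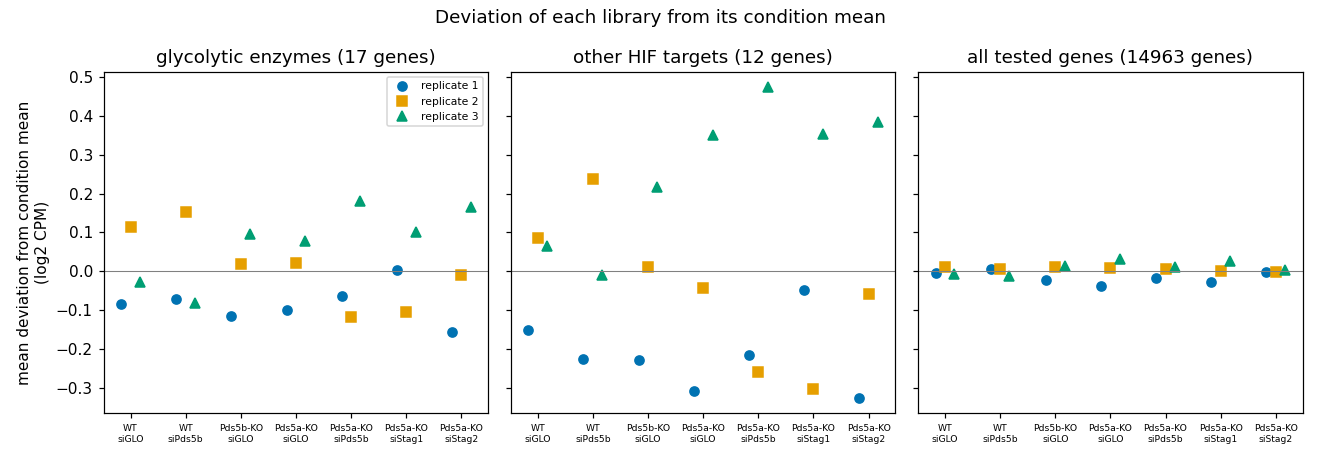
Mean deviation of the 17 enzymes, the 12 other HIF targets and all 14963 tested genes from their condition mean (vertical axis, log2 CPM) in each of the 21 libraries, by condition, with a colour and shape for each replicate number. The other HIF targets reach 0.47 in replicate 3 of Pds5a-KO siPds5b and -0.33 in replicate 1 of Pds5a-KO siStag2, while all tested genes stay near 0.

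Replicate number was tested for each gene across the 7 conditions. It was called for 7 of the 38 genes, against 2.93% of all tested genes, and all 7 were higher in replicate 3 than in replicate 1, against 1.72% of all tested genes higher and 1.14% lower. None was among the 17 enzymes. At an unadjusted p under 0.05 stood 10 of the 17 enzymes and 9 of the 12 other HIF targets, against 3145 of all 14963 tested genes. The 7 called genes were 3 of the 4 transporters (Slc2a1, Slc2a3 and Slc16a3), the flux regulator Pfkfb3 and 3 of the 12 other HIF targets (Adm, Ddit4 and Ankrd37). Adm differed by 1.30 ± 0.14 on the log2 scale (adjusted p = 2.24e-06) and Ddit4 by 1.01 ± 0.10 (adjusted p = 6.4e-05), each with replicate 3 above replicate 1 in 7 of 7 conditions. Ddit4 had 1659 normalized counts in WT siGLO replicate 1 and 3354 in replicate 3, and 3695 and 7247 in the same libraries of Pds5a-KO siPds5b. Pfkfb3, which makes a potent activator of phosphofructokinase, differed by 1.01 ± 0.12 (adjusted p = 0.000127), with 559 normalized counts in replicate 1 of Pds5a-KO siGLO and 1696 in replicate 3. The difference in Ankrd37 was 0.83 ± 0.12. Slc2a3, at 0.47 ± 0.07, Slc16a3, at 0.39 ± 0.07, and Slc2a1, at 0.34 ± 0.06, differed by less. The enzymes lay between -0.19 for Pfkm and 0.51 ± 0.12 for Aldoc (adjusted p = 0.0121).

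Aldoc, an aldolase form best known from brain, was also the gene whose deviations within conditions most resembled the mean of the other HIF targets, with a Pearson correlation of 0.96 over 21 libraries. Ero1l, an oxidase of the endoplasmic reticulum, and Egln3 followed at 0.91. Hif1a itself had a correlation of -0.70, Car9 0.04 and Pfkm, the muscle form of phosphofructokinase, -0.34. The points of these correlations are single libraries, which share their preparation and depth across genes. Median depth was 20009068 counts in replicate 1, 17939301 in replicate 2 and 20036207 in replicate 3, and the origin of the differences between numbers was not tested.

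**Figure D5:**
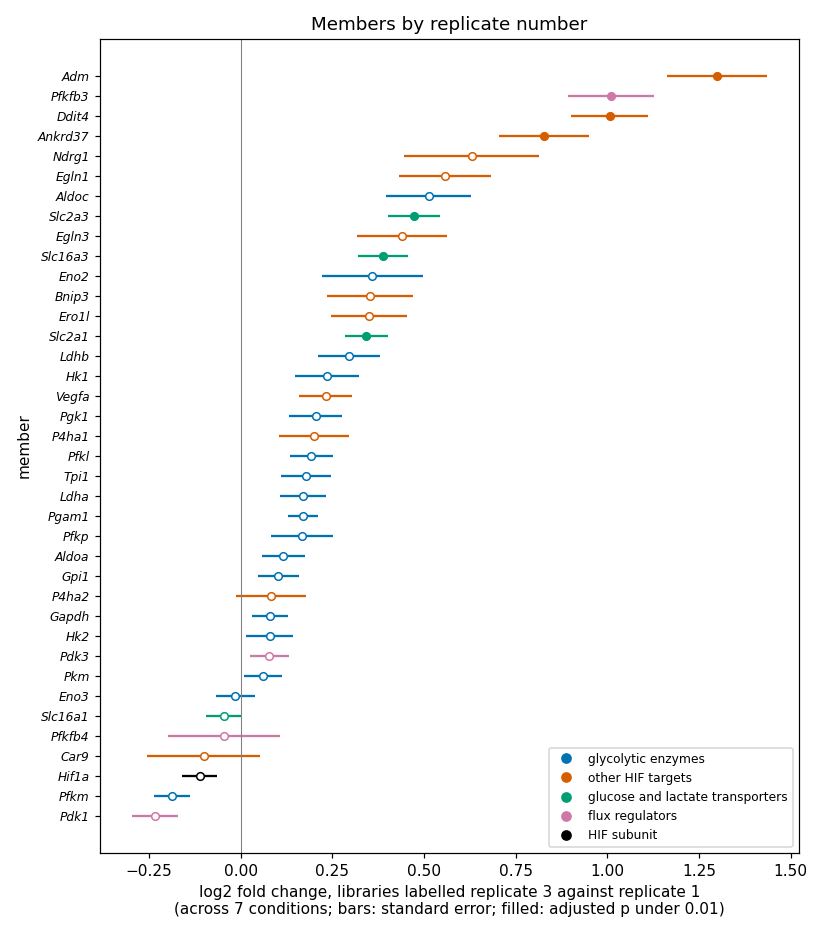
Log2 fold change of each of the 38 tested genes (vertical axis, sorted) between libraries labelled replicate 3 and replicate 1 across the 7 conditions (horizontal axis), with bars for the standard error, colours for the class and filled points for an adjusted p under 0.01. Adm (1.30), Pfkfb3 (1.01), Ddit4 (1.01) and Ankrd37 (0.83) lie farthest to the right, and none of the enzyme points is filled.

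Counts of called genes changed when all libraries of a number were left out, which leaves 2 libraries a condition. In Pds5a-KO siGLO relative to WT siGLO, 5 genes were called without replicate 1 (Eno3, Ldhb, Slc2a1, Slc2a3 and Vegfa; 19.2% of all tested genes), 1 without replicate 2 (Eno3; 4.5%) and 2 without replicate 3 (Eno3 and Pfkp; 6.48%). In Pds5b-KO siGLO the call of Eno3 and of Ldhb held each time. Pgk1 was the other gene called without replicate 1 (16.1% of all tested genes), none was added without replicate 2 (4.18%), and Hk1, Pfkp, Gapdh and Adm were added without replicate 3 (9.85%). In Pds5a-KO siPds5b relative to WT siGLO, Eno3 was called each time, P4ha2 without replicate 2 or 3, Slc2a1 and Ldhb without replicate 1, and Pfkp, Hk2 and Adm without replicate 3. Hif1a was called in none of these fits, and 31.8%, 15% and 18.1% of all tested genes were called in them. The median of the other HIF targets in that comparison was 0.29, 0.36 and -0.01 without replicates 1, 2 and 3. Relative to Pds5a-KO siGLO, P4ha2 was called after siPds5b in none of these fits, whereas Vegfa was called without replicate 1 (7.41% of all tested genes) and Pfkp without replicate 3 (2.84%). In the direct comparison of the knockouts Ldhb was called each time, and Hk2 and Pfkp were added without replicate 3. Without replicates 1, 2 and 3, 18.1%, 4.21% and 11.5% of all tested genes were called in that comparison. Eno3 was the gene whose difference from WT siGLO was called in every fit of these 3 comparisons, and it differed by -0.02 ± 0.05 between replicates 3 and 1.

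Further genes of both pathways were looked up from 2 lists of genes outside the 39. Of 28 tested genes of glycolysis and pyruvate use, 2 rose in Pds5a-KO siGLO relative to WT siGLO and none fell, where 17.8% of all tested genes were called (G6pdx, the first enzyme of the pentose phosphate pathway, by 0.33 ± 0.06, and Minpp1 by 0.31 ± 0.08). None was called in Pds5b-KO siGLO by edgeR (18.2% of all tested genes), with 8 at an unadjusted p under 0.05 and 1 called by DESeq2. In Pds5a-KO siPds5b relative to WT siGLO 6 rose and 1 fell, where 32% of all tested genes were called. The largest of these changes were those of the gluconeogenic enzymes Fbp1, at 1.60 ± 0.41, and Fbp2, at -1.45 ± 0.41. The counts of both were low. Fbp1 was at 7.08 ± 3.91 normalized counts (SD, n = 3) in WT siGLO and at 22.4 ± 5.52 in Pds5a-KO siPds5b. Fbp2 was at 41.8 ± 19.1 and 15.1 ± 3.36 in the same conditions. In Pds5a-KO siGLO relative to Pds5b-KO siGLO 3 of the 28 were higher (19.2% of all tested genes called), among them G6pdx by 0.40 ± 0.06. In the other 5 comparisons edgeR called none of the 28, with 2 to 5 genes at an unadjusted p under 0.05 in each and 1 called by DESeq2, after siPds5b in Pds5a-KO cells. Of 30 tested genes of the HIF pathway, 5 rose and 1 fell in Pds5a-KO siGLO (17.8% of all tested genes called), 6 rose and 4 fell in Pds5b-KO siGLO (18.2%), and 6 rose and 4 fell in Pds5a-KO siPds5b (32%), each relative to WT siGLO. Relative to Pds5a-KO siGLO, 2 fell after siPds5b (Angptl4 and Ak4; 7.59% of all tested genes called), and 1 rose and 1 fell after siStag2 (Arnt2 and Angptl4; 2.24%). In Pds5a-KO siGLO 3 were higher and 2 lower than in Pds5b-KO siGLO (19.2%). After siPds5b in WT cells and after siStag1 none of the 30 was called by edgeR, with 1 and 2 at an unadjusted p under 0.05, and DESeq2 called 0 and 1. Lox, which crosslinks collagen, rose in Pds5a-KO siGLO by 2.63 ± 0.61 on the log2 scale (adjusted p = 0.00256). Its counts were low, at 3.44, 5.63 and 7.44 normalized counts in WT siGLO and 18.3, 32.7 and 53.0 in Pds5a-KO siGLO. In both conditions they rose from replicate 1 to replicate 3. Car12, a carbonic anhydrase, rose in Pds5a-KO siGLO by 1.48 ± 0.23 and in Pds5b-KO siGLO by 1.45 ± 0.23. Angptl4, a regulator of lipoprotein lipase, was lower in both knockouts than in WT, fell further in Pds5a-KO cells with siPds5b (log2 fold change -0.77 ± 0.12 relative to Pds5a-KO siGLO, adjusted p = 0.000124), and was the gene of these lists called for the interaction (-0.78 ± 0.17, adjusted p = 0.00829).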

How the data were processed

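Poly-A RNA of 21 libraries in 7 conditions was sequenced. The submitters' notes name STAR and mm10 for alignment and DESeq2; the deposited values are raw counts per gene symbol, and the counting tool, annotation and use of strand are not given in the sources used here. From these counts, edgeR 4.0.16 (R 4.3.3) gave the tests. Genes with too few counts were filtered by its own rule, libraries were scaled by TMM, 1 robust quasi-likelihood model was fitted to all libraries, and p-values were adjusted by Benjamini-Hochberg over 14963 genes and called under 0.01. Normalized counts are CPM after TMM brought to 19816900 counts a library, the mean over libraries. The SE of a log2 fold change was derived from its F statistic. The code was tested on simulated data.

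Alternatives were DESeq2 1.42.0, RLE scaling, library size only, no filter, at least 10 counts in every library, only the groups compared, a replicate block, an adjusted p under 0.05 and each library left out. The test of replicate number and the fits without all libraries of a number were added after seeing the data. The members, lists and tests were chosen with earlier results of these data known. All 39 members could be named. Library values are given for called members and for others that the text turns on, the latter chosen after their values were seen, and up to 3 called genes of each further list could be named per comparison. Replicate numbers were taken as pairing where the deviations of every same-numbered pair correlated above 0.1, which held for siPds5b relative to siGLO in WT cells (0.17 to 0.318) and in Pds5a-KO cells (0.166 to 0.457) and for no other comparison. The study describes libraries of WT and knockout cells as biological replicates, with 1 clone per knockout, so p-values measure the spread between these libraries and not between clones. Gene positions and lengths are from the annotation of GRCm38. Figures were drawn with matplotlib 3.10.9 in Python 3.11.15.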

Additional observations from a re-analysis of the deposited data

Results flagged for a closer look

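The effect of the knockout relative to WT siGLO differed between the Pds5a-KO and Pds5b-KO lines for 2 genes, by a direct test of the lines against each other with edgeR. For Ldhb, the log2 difference between the lines was 2.03, from 0.76 in Pds5a-KO and -1.28 in Pds5b-KO, with the libraries on opposite sides of WT siGLO. For Hk2 it was -0.36, from -0.18 in Pds5a-KO and 0.17 in Pds5b-KO, neither of which was called by itself. Each line is a single clone, so the clone and the gene cannot be told apart.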

How the results depend on the processing

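Counts of called genes among the 38 are given here where they moved by more than 1.5 times. For Pds5a-KO siGLO against WT siGLO (3 genes), the count was 1 to 5 when libraries were left out. For Pds5b-KO siGLO (5 genes) it was 8 with only the groups compared, 8 at an adjusted p under 0.05 (31.3% of all tested genes) and 2 to 6 when libraries were left out. For siPds5b in Pds5a-KO cells (1 gene) it was 2 by DESeq2 (9.25%) and 4 at an adjusted p under 0.05 (15.7%). It was 0 with no filter or with only the groups compared and 0 to 1 when libraries were left out. For siStag2 (0 genes) it was 0 to 2 when libraries were left out. For Pds5a-KO siPds5b against WT siGLO (5 genes) it was 8 by DESeq2 (31.6%) and 11 at an adjusted p under 0.05 (44.7%). It was 2 to 5 when libraries were left out. For Pds5a-KO against Pds5b-KO (2 genes) it was 4 by DESeq2 (23.1%) and 7 at an adjusted p under 0.05 (32.4%). It was 1 with scaling by library size only and 1 to 3 when libraries were left out. The ranges include the fits without all libraries of a replicate number, which were chosen after seeing the data. For counts printed here without a percentage, the share of all tested genes is not given. Whether those counts moved with that share is thus not shown here. WT siPds5b, siStag1 and the interaction had 0 called genes in each of these fits.

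With the replicate number as a block, the count was 6 for Pds5a-KO siGLO against WT siGLO (21.2% of all tested genes), 9 for Pds5b-KO siGLO (22.2%), 5 for siPds5b in Pds5a-KO cells (10.5%), 1 for siStag2 (4.52%), 10 for Pds5a-KO siPds5b against WT siGLO (36%) and 5 for Pds5a-KO against Pds5b-KO (23.7%). By the rule of correlations above 0.1, the numbers were taken as pairing only for siPds5b relative to siGLO in WT and Pds5a-KO cells. The block changed no call among the genes counted here in WT siPds5b. The labels state no pairing for any comparison. The lowest correlation was 0.0769 for siStag1 and 0.0848 for siStag2, which missed the rule. The median was 0.276 for siStag1 and 0.115 for siStag2, against 0.175 for siPds5b in WT cells and 0.290 in Pds5a-KO cells. As a hint from the data, all 6 libraries correlated best with the library of their own number for siStag2 and for these siPds5b comparisons. It was 5 of 6 for siStag1 and for each knockout against WT siGLO. It was 2 of 6 for Pds5a-KO siPds5b against WT siGLO and for Pds5a-KO against Pds5b-KO. Whether libraries were paired in any comparison is thus not known.

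When libraries were left out, the median log2 fold change of the enzymes or other HIF targets moved, in the cases given first, by more than its SD over replicate numbers. The median of the enzymes was -0.14 to -0.0014 for WT siPds5b, -0.089 to 0.10 for siPds5b in Pds5a-KO cells and -0.13 to 0.088 for siStag2. That of the other HIF targets was -0.13 to 0.36 for siPds5b in Pds5a-KO cells, -0.29 to 0.14 for siStag2 and -0.062 to 0.19 for Pds5a-KO against Pds5b-KO. Within that SD, the other HIF targets ran from -0.020 to 0.44 for the interaction. The causes were not tested. Raw counts were low for Adm (40 to 391 per library), Car9 (35 to 66) and Pfkfb4 (47 to 95). Counts were also low for Lox, Fbp1 and Fbp2 of the further lists. For Adm, replicate number took 83.0% of the variance within conditions. The part of depth in the spread of these genes was not tested. All genes are limited by 3 libraries a condition. The uncertain counting of Gapdh, Pgk1, Pgam1 and Bnip3 could not be resolved from gene totals.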
